A study of Mus musculus with 141 samples.

Results

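The interferon-inducible GTPases described here are 10 genes, chosen by name from the 24423 genes quantified in every library: 6 guanylate-binding protein genes (*Gbp2*, *Gbp3*, *Gbp4*, *Gbp6*, *Gbp7* and *Gbp9*) and 4 immunity-related GTPase genes (*Irgm1*, *Irgm2*, *Igtp* and *Iigp1*). Expression was measured by RNA-seq in whole liver, lung and kidney of 47 Collaborative Cross (CC) strains, which are recombinant inbred mice that each carry a mosaic of the same founder genomes. Each strain was represented by 1 adult male mouse aged 8 to 12 weeks, so that 47 libraries were available in each tissue and the strain and the individual mouse cannot be told apart. All mice had been kept in exposure chambers supplied with clear air for 6 hours per day on weekdays over 2 weeks, and the labels name no infection or interferon treatment. The data were used to ask how the level of these genes differed between tissues, which strains had very low values, and whether a strain that was high or low in 1 tissue was so in the others.

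Interferons, and interferon gamma in particular, induce these GTPases through transcription factors that include IRF1. The guanylate-binding proteins gather on the vacuoles of intracellular bacteria and parasites and on the bacteria themselves, and promote their lysis and the activation of inflammasomes. The immunity-related GTPases fall into effectors that load onto the vacuole, such as the product of *Iigp1*, and regulators of the M class, encoded by *Irgm1*, *Irgm2* and *Igtp*, which hold the effectors inactive on the membranes of the cell's own organelles. In mice without infection, these genes are known to be expressed at a basal level that depends on tonic interferon signalling.

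The genes lie in clusters. In build NCBIM37, *Gbp7* (chr3:142193302-142213047), *Gbp3* (chr3:142223016-142236173) and *Gbp2* (chr3:142283566-142300972) follow one another on the forward strand of chromosome 3. *Gbp9* (chr5:105507413-105539311), *Gbp4* (chr5:105544786-105568605) and *Gbp6* (chr5:105699723-105722718) lie on the reverse strand of chromosome 5. *Igtp* (chr11:58013058-58021093) and *Irgm2* (chr11:58028530-58036282) are neighbours on chromosome 11, with 15472 bases between their starts, whereas *Irgm1* (chr11:48675470-48685185) lies apart on the same chromosome. *Iigp1* lies apart from all of these.

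Promoter sequences were inspected because the genes proved to vary together across strains. RefSeq promoters (assembly GRCm38.p6, 250 bases before to 50 after the start) were found for *Gbp2*, *Gbp3*, *Gbp7*, *Irgm1*, *Irgm2* and *Igtp*, and *Gbp4*, *Gbp6* and *Gbp9* had no entry. The promoter of *Iigp1* was not analysed here. Each was searched on both strands for the core of the interferon-stimulated response element (ISRE, GAAA and again GAAA after 2 bases of any kind), which IRF factors bind, and for the gamma-activated site (GAS, TTCNNNGAA), an element of promoters that respond to interferon gamma. The ISRE core was present for 6 of 6 of these genes (for *Gbp3*, at 1 of the gene's annotated starts) and in 3.44% of all 32851 promoters, and the GAS for 3 (*Gbp7*, *Igtp* and *Irgm2*) and in 8.30% of all promoters. The 120 bases before the start are given here for the 4 genes with promoters whose counts were high, 5′ to 3′ on the strand of the gene, with matches to either motif in capitals.
Gbp2, chr3:142620543-142620662, forward strand: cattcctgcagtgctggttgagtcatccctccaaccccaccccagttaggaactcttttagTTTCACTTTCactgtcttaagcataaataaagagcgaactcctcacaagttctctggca
Irgm1, chr11:48871421-48871540, reverse strand: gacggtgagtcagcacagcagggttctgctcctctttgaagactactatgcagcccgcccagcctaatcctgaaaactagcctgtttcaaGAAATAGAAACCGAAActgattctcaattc
Igtp, chr11:58199436-58199555, forward strand: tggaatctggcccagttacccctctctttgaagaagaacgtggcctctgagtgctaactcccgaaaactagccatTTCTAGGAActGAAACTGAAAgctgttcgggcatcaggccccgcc
Irgm2, chr11:58214857-58214976, forward strand: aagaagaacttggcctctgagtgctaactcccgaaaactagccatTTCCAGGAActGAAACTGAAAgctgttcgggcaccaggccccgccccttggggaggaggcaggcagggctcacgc
In *Gbp2* the capitals mark the ISRE core on the opposite strand, beginning 59 bases before the start. In *Irgm1* they mark 2 overlapping copies of it, 30 and 24 bases before the start. *Igtp* and *Irgm2* both hold a GAS followed by an ISRE core without overlap, at 45 and 34 bases before the start in *Igtp* and at 75 and 64 in *Irgm2*. The promoters of this pair were alike beyond the motifs, with 68.1% identical bases over 270 bases at the best ungapped offset and a longest identical run of 61 bases, which extends beyond the stretches printed here, against 31.9% to 35.3% for the other pairs among the 6 genes. A match describes the letters only.

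Library depth ranged from 1738046 to 42158454 counts in liver, from 2829104 to 17585682 in lung and from 3046695 to 15028553 in kidney, and the summed markers of hepatocytes, alveolar and airway cells, and kidney tubule were each far higher in the tissue of that name (medians of 80100, 81016 and 89041 TPM) than in the others (at most 346 TPM). By the study's methods, reads that aligned to several places were left out, and the 10 genes differed in how this could act on them. The 6 genes with 1 RefSeq transcript named in the files (*Gbp2*, *Gbp6*, *Gbp9*, *Irgm1*, *Irgm2* and *Igtp*) had mean levels of 10.9 to 42.2 CPM (counts scaled to library size). The 4 genes with 2 or 3 named transcripts (*Gbp3*, *Gbp4*, *Gbp7* and *Iigp1*) had 0.194 to 1.58 CPM. Over all genes with a count, the median of the mean CPM was 3.51 for the 17145 genes with 1 named transcript and 0.442 for the 5507 genes with more. Whether reads shared between transcripts of a gene were lost was not tested, and the low values of these 4 genes are read here only as the counts that were deposited.

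Sequence shared between genes was measured in the NCBIM37 reference as the share of 50-base exon windows that occur once in the genome. It was 80.4% to 98.7% for 9 of the 10 genes. For *Gbp6* it was 14.7%, since 80.7% of its windows also occur in the neighbouring gene *Gbp10*, so values of *Gbp6* rest on a small part of the gene and its separation from *Gbp10* is uncertain. Median TPM of *Gbp10* was 2.54 for liver, 0.44 for lung and 0.2 for kidney, beside 4.17, 7.94 and 1.9 for *Gbp6*. The highest TPM of *Gbp10* was 53.8, 34.7 and 89.5, each in the strain CC016.

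*Gbp2* and *Gbp9* were lung genes. *Gbp2*, one of the guanylate-binding proteins that act at the vacuole of *Toxoplasma*, had a TPM (a level per transcript length and library size) of 12.0 to 829 with a median of 84.4 in lung, 3.51 to 242 with a median of 10.1 in kidney, and 1.08 to 174 with a median of 4.72 in liver. *Gbp9* had 12.7 to 198 TPM in lung (median 74.6), 2.63 to 32.4 in kidney (median 9.66) and 1.61 to 52.7 in liver (median 5.06). The ranges of the tissues overlapped for both genes, yet within mice the lung was the higher tissue in 47 of 47 mice against liver and in 47 of 47 against kidney. Of the same family, *Gbp6* ran from 1.69 to 100 TPM in lung (median 7.94), from 0.87 to 43.2 in liver (median 4.17) and from 0.38 to 120 in kidney (median 1.9).

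The regulators of the M class were more evenly spread over the tissues. *Irgm1* had medians of 45.1 TPM in lung (8.7 to 288), 42.2 in liver (14.3 to 192) and 39.2 in kidney (7.28 to 390), medians that lay well within one another's ranges on this scale. *Irgm2* had medians of 33.4 TPM in lung (4.95 to 188), 26.2 in liver (12.5 to 136) and 11.4 in kidney (3.28 to 221). *Igtp*, which encodes Irgm3, had medians of 38.4 TPM in liver (8.61 to 458), 32.8 in lung (5.95 to 543) and 14.9 in kidney (5.11 to 594). For *Irgm2* and *Igtp*, the TPM medians of liver and lung lay close together and kidney stood below both, although all ranges overlapped.

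The effector *Iigp1* (chr18:60535683-60552281 in NCBIM37) was counted at low level, with medians of 2.26 TPM in liver, 0.62 in lung and 0.13 in kidney, which correspond to 26, 6 and 1 counts. *Gbp3* reached a median of 10 counts only in lung (1.54 TPM, against 0.17 in liver and 0.32 in kidney). *Gbp4* and *Gbp7* had medians of 3 and 2 counts in lung and of at most 1 in the other tissues, and 45 of 47 kidneys had 3 or fewer counts for each, the limit below which a value was not read as resolved. The plot of levels shows these 4 genes in the lower part of the axis, with the libraries at 0 drawn on a line at its foot.

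**Figure D1:**
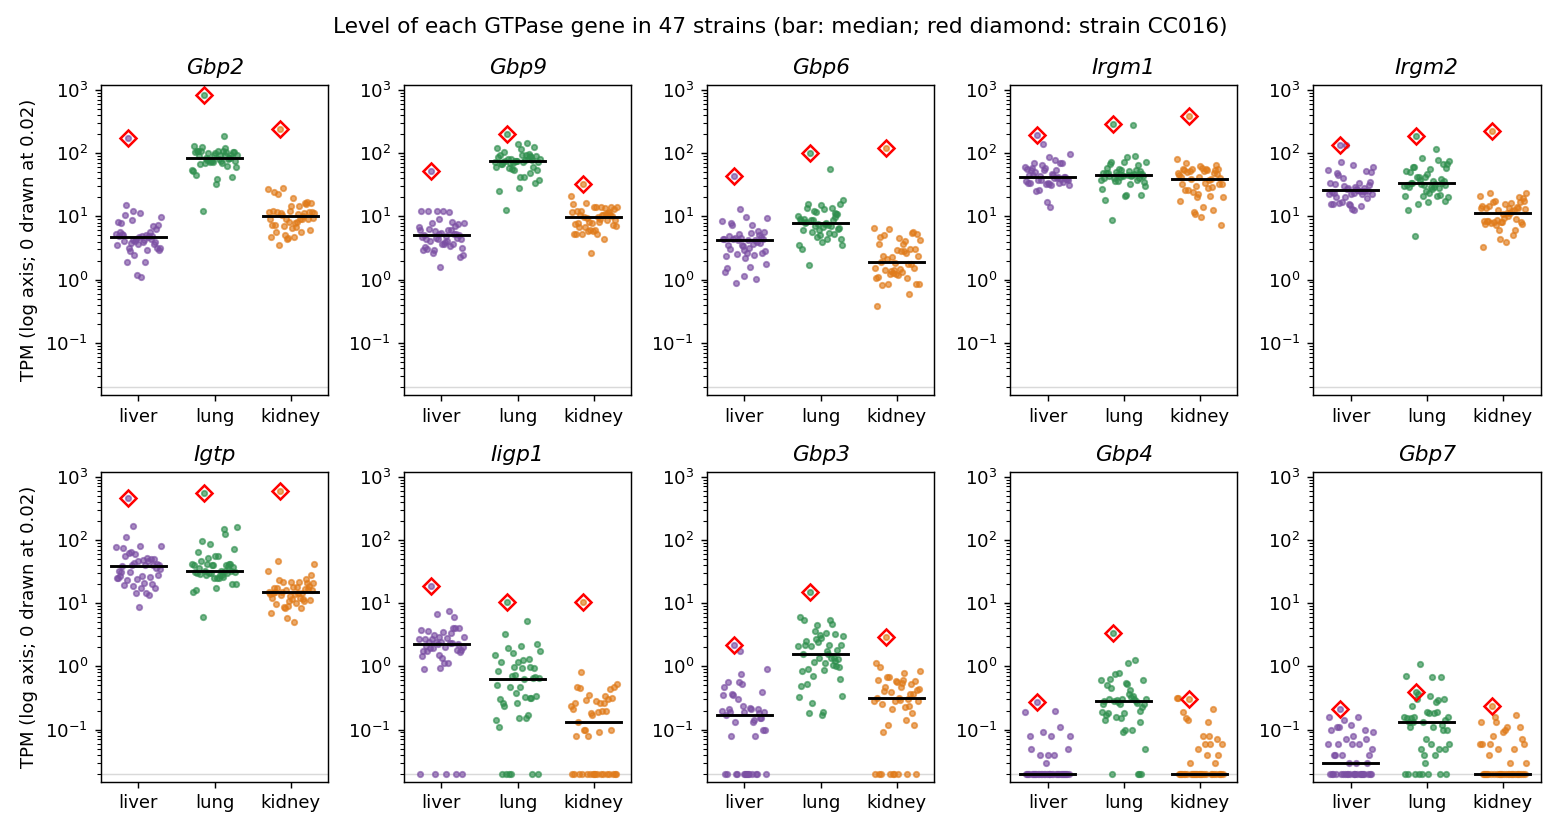
TPM of the 10 GTPase genes (vertical axis, log scale, with 0 drawn at 0.02) in liver, lung and kidney (horizontal axis). Each point is 1 of 47 strains, the bar is the median and the red diamond marks strain CC016, which is the highest point for 9 of 10 genes in each tissue; *Gbp2* and *Gbp9* have their highest medians in lung.

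Tissues were compared over 12127 genes with limma-voom on counts scaled by TMM, with the mouse as a block, and a gene was called at a Benjamini-Hochberg q ≤ 0.1 over all genes together with a log2 fold change of 1 or more in either direction. *Gbp3*, *Gbp4* and *Gbp7* had too few counts to be tested. Of the 7 tested GTPases, 4 were higher in liver than in lung (*Igtp*, *Iigp1*, *Irgm1* and *Irgm2*), 2 were higher in lung (*Gbp2* and *Gbp9*) and 1 was not called. Calls were common in this comparison, where 55% of all genes tested passed, 23.9% toward liver and 31% toward lung, so that the number called does not set the family apart. The median log2 fold change of the 7 genes was 1.15, against -0.06 over all genes tested.

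The excess of lung over liver came to a log2 fold change (liver minus lung) of -2.41 for *Gbp2* (SE 0.082, q = 1.36e-49) and -2.19 for *Gbp9* (SE 0.065, q = 7.99e-55). In the other direction stood *Iigp1* at 3.0 (SE 0.17, q = 2.14e-32), *Irgm1* at 1.43 (SE 0.10, q = 1.12e-24), *Igtp* at 1.38 (SE 0.11, q = 6.52e-21) and *Irgm2* at 1.15 (SE 0.090, q = 2.91e-22). The family was thus split between these tissues by gene. *Gbp6* was at 0.34 (SE 0.11, q = 0.00251) and did not reach the fold threshold.

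The liver side of this split depended on how libraries were scaled. The median TMM factor was 0.632 for liver, 1.96 for lung and 1.26 for kidney, and the median log2 fold change of all genes between liver and lung moved from -0.06 with TMM to -1.21 on log2(TPM + 1) and -1.44 on library totals. On log2(TPM + 1), *Igtp*, *Irgm1* and *Irgm2* were at -0.05, -0.03 and -0.28 and none was called, whereas *Gbp2* and *Gbp9* were called higher in lung at -3.79 and -3.47. *Iigp1* was at 0.87 on that scale, and *Gbp6* turned to -0.92. *Irgm2* also lost its call with DESeq2 size factors (0.91) and with DESeq2 (0.96). On library totals, *Gbp2* and *Gbp9* toward lung and *Iigp1* toward liver were the calls. Relative to the median of all genes, the values moved less, at 3.06 with TMM and 2.08 on log2(TPM + 1) for *Iigp1*, 1.44 and 1.16 for *Igtp*, 1.48 and 1.18 for *Irgm1*, 1.21 and 0.93 for *Irgm2*, and 0.40 and 0.29 for *Gbp6*. Of all calls between liver and lung, 43.5% were toward liver with TMM and 12.6% on log2(TPM + 1).

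Between liver and kidney, 5 of 7 GTPases were higher in liver (*Gbp6*, *Igtp*, *Iigp1*, *Irgm1* and *Irgm2*), none was called toward kidney and 2 were not called, in a comparison that called 36.4% of all genes, 15.6% toward liver and 20.8% toward kidney. By limma-voom 0 members had an unadjusted p under 0.05 toward kidney, and edgeR's quasi-likelihood test and DESeq2 also called 0 in that direction, although DESeq2 put *Gbp2* at -0.21 (q = 0.033), short of the fold threshold. *Irgm2* had a log2 fold change of 2.26 (SE 0.091, q = 4.77e-43) and was the higher in liver in 47 of 47 mice by TMM-scaled CPM and in 46 of 47 by TPM. *Igtp* was at 2.16 (SE 0.11, q = 1.6e-33), *Gbp6* at 1.57 (SE 0.11, q = 5.54e-25) and *Irgm1* at 1.28 (SE 0.10, q = 1.5e-21). *Iigp1* was at 4.01 (SE 0.17, q = 5.94e-41) against a median of 1 count in kidney. *Gbp2* differed by -0.01 (SE 0.083, q = 0.871) and *Gbp9* by 0.23 (SE 0.065, q = 0.000746). On log2(TPM + 1), which moved the median of all genes to -0.72, *Igtp*, *Iigp1* and *Irgm2* kept their calls, while *Gbp6* and *Irgm1* fell below the fold threshold at 0.55 and 0.34, *Gbp9* turned to -0.69, and *Gbp2* was at -0.94. With library totals *Gbp2* was called toward kidney at -1.06.

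Between lung and kidney, 5 of 7 were higher in lung (*Gbp2*, *Gbp6*, *Gbp9*, *Iigp1* and *Irgm2*) and none was called toward kidney, against 46.1% of all genes called, 25.5% toward lung and 20.6% toward kidney. By limma-voom 0 members had an unadjusted p under 0.05 toward kidney, and edgeR's quasi-likelihood test and DESeq2 also called 0 in that direction. *Gbp9* and *Gbp2* were at 2.42 (SE 0.064, q = 1.17e-58) and 2.40 (SE 0.081, q = 1.39e-49). *Gbp6* was at 1.23 (SE 0.11, q = 1.06e-18), *Irgm2* at 1.11 (SE 0.091, q = 8.75e-21) and *Iigp1* at 1.01 (SE 0.17, q = 9.05e-08), the last between medians of 6 and 1 counts and at 0.51 on log2(TPM + 1). *Igtp* was at 0.78 (SE 0.12, q = 1.8e-09), below the fold threshold, and at 1.22 on log2(TPM + 1), where it was called. *Irgm1* differed by -0.15 (SE 0.10, q = 0.161) with TMM and by 0.37 on log2(TPM + 1). The plot of fold changes sets both scales side by side for the 3 pairs of tissues.

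**Figure D2:**
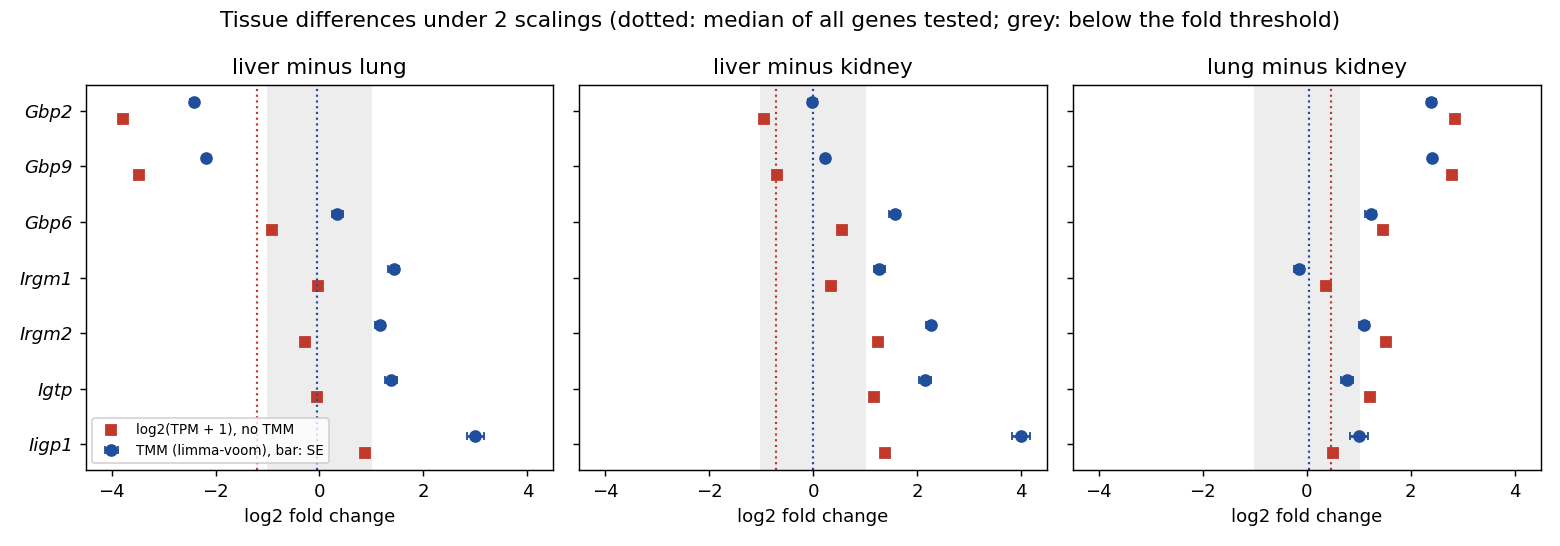
Log2 fold change (horizontal axis) of the 7 tested GTPases (vertical axis) between each pair of tissues, with TMM (blue circles, bar 1 SE) and on log2(TPM + 1) without TMM (red squares). Dotted lines mark the median of all genes tested on each scale and the grey band the fold threshold of 1; *Gbp2* and *Gbp9* lie toward lung on both scales, and the values of *Irgm1*, *Irgm2* and *Igtp* between liver and lung move from above 1 to near 0.

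The wider pathway was read from lists of related genes with the same fit, and each count is to be read against the shares of all genes called, which were 23.9% toward liver and 31% toward lung between these tissues, 15.6% toward liver and 20.8% toward kidney, and 25.5% toward lung and 20.6% toward kidney. Among 11 other tested GTPases of these families, 7 were higher in lung than in kidney and 0 in kidney, 5 were higher in liver than in kidney and 0 in kidney, and between liver and lung 4 were higher in liver and 3 in lung. On log2(TPM + 1) the last of these became 2 and 7. *Gm4951* and *F830016B08Rik*, of the immunity-related GTPase family like *Iigp1*, had the largest differences between liver and kidney, at 5.98 (SE 0.16, q = 5.77e-59) and 4.82 (SE 0.15, q = 2.58e-53), and *Gm4841* was higher in liver than in lung at 3.07 (SE 0.22, q = 8e-25). *Gbp5*, a guanylate-binding protein that promotes inflammasome assembly, was a lung gene like *Gbp2*, with medians of 17.5 TPM in lung, 3.13 in kidney and 1.19 in liver (lung minus kidney 2.23, SE 0.12, q = 3.94e-34).

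Of 8 tested genes of interferon gamma signalling, 6 were higher in lung than in kidney, and 3 were higher in liver than in kidney, with 0 toward kidney in both. Lung exceeded liver for 3, near the share of all genes, and liver exceeded lung for 1, and on log2(TPM + 1) these were 5 and 0. *Irf1*, which encodes an activator of these GTPases, had medians of 8.53 TPM in lung, 1.01 in kidney and 0.58 in liver (lung minus kidney 2.37, SE 0.13, q = 7.71e-34). *Nlrc5*, the activator of class I histocompatibility genes, was higher in liver than in kidney at 2.77 (SE 0.089, q = 1.43e-51), and *Stat2* at 2.31 (SE 0.061, q = 3.58e-59). *Ifng* itself was at or under 3 counts in 46 livers, 39 lungs and 46 kidneys of 47, and its level was not resolved in most libraries.

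Of 16 other interferon-induced genes tested, 11 were higher in lung than in kidney and 2 in kidney, 10 were higher in liver than in kidney and 1 in kidney, and between liver and lung 2 were higher in liver and 3 in lung, both below the share of all genes. On log2(TPM + 1) the last became 1 and 10, and between liver and kidney 4 and 3. *Cxcl9*, a chemokine induced by interferon gamma, was higher in liver than in lung at 3.71 (SE 0.21, q = 4.73e-32), *Psmb9*, of the immunoproteasome, was higher in liver than in kidney at 2.68 (SE 0.097, q = 6.18e-47), and *Zbp1*, a nucleic acid sensor, was higher in lung than in kidney at 2.39 (SE 0.15, q = 1.43e-27). Of 6 inflammasome partners, 5 were higher in lung than in kidney and 5 were higher in lung than in liver, and between liver and kidney 4 were higher in liver and 1 in kidney, or 1 and 1 on log2(TPM + 1). The largest were *Gsdmd*, the pore former of pyroptosis (liver minus kidney 3.56, SE 0.056, q = 3.7e-79), *Nlrp3* (lung minus kidney 3.13, SE 0.16, q = 2.98e-35) and *Casp1* (lung minus kidney 2.76, SE 0.12, q = 4.8e-41). Among 11 genes of the autophagy machinery that the GTPases work with, 3 were called toward liver against lung, 2 toward liver against kidney and 2 toward kidney against lung, shares near those of all genes. The 3 toward liver against lung were *Gabarapl1* (2.37), *Atg5* (2.02) and *Atg3* (1.71), which on log2(TPM + 1) were at 0.89, 0.36 and 0.21 and not called.

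The GTPases varied widely between strains. Over genes expressed in a tissue, the median SD of log2(TMM-scaled TPM + 1) between strains was 0.335 for liver, 0.341 for lung and 0.328 for kidney. *Igtp* had 1.02, 1.0 and 0.981, and 96.2%, 96.3% and 96.5% of genes had a smaller SD in these tissues. All these SDs include the mouse of strain CC016, which for *Igtp* in kidney was at 57.5 times the median of the other strains with TMM. No SD was computed without that mouse, so its share in the spread is not known. In lung and kidney *Gbp9* was the least variable of the well-counted members, at 0.457 and 0.491, with 70.3% and 77.6% of genes below it. In liver this was *Irgm1*, at 0.586 with 84.8% below it, and *Gbp9* was at 0.728 with 91.1% below it. Even so, most strains lay near the median, and between 30 and 43 of 47 strains were within 0.5 and 2 times the median TPM for *Gbp2*, *Gbp6*, *Gbp9*, *Irgm1*, *Irgm2* and *Igtp* in each tissue.

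Strains with very low values, under 10% of the tissue's median of TMM-scaled TPM, were sought for each gene and tissue with a median of at least 10 counts. None was found for *Gbp2*, *Gbp6*, *Gbp9*, *Irgm1*, *Irgm2* or *Igtp* in any tissue, or for *Gbp3* in lung. For *Iigp1* in liver, 5 strains were very low (CC002, CC021, CC036, CC046 and CC061), each with 0 counts, while the other 42 strains had from 4 to 188 counts with a median of 27. CC021, CC046 and CC061 also had 0 counts in lung and kidney. Over all strains, 6 lungs and 17 kidneys had 0 counts, at medians of 6 and 1 counts, so a 0 in kidney does not set a strain apart. CC002 had 1 count in lung and 0 in kidney, and CC036 had 7 counts in lung and 1 in kidney, so that *Iigp1* was present in at least 1 tissue of that strain. In the liver of CC036 a count of 3 corresponds to 1.73 CPM, in that of CC046 to 0.124 CPM, so the absence was much better resolved in CC046; these limits cover counting error only. On TPM without TMM, *Irgm1* in the same 5 livers was at 0.863 to 1.67 times the median of the tissue. *Irgm2* was at 0.865 to 1.91, *Igtp* at 0.655 to 1.27 and *Gbp2* at 0.625 to 1.86. On TMM-scaled TPM, these livers were ranked from the highest by the mean rank value of the well-counted members. That mean includes *Iigp1*, which lowers these ranks. They were 45 for CC002, 35 for CC036, 32 for CC061, 27 for CC021 and 14 for CC046. On that scale the liver of CC002 was thus not shown to be low for *Iigp1* alone.

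With a limit of 25% of the median, 12 values qualified in place of 5: the 5 of *Iigp1*, *Gbp3* in the lungs of CC019, CC031 and CC032, *Gbp6* in the liver and kidney of CC043 and the kidney of CC004, and *Irgm1* in the kidney of CC061. Each of these lungs had 1 count of *Gbp3* and the kidney of CC004 had 2 of *Gbp6*, values not read as resolved. CC043 had 14 counts of *Gbp6* in liver and 4 in kidney, and the kidney of CC061 had 45 of *Irgm1*.

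*Irgm1* was low in the kidneys of several strains, a group singled out after its values were seen. In 7 strains (CC004, CC023, CC024, CC031, CC033, CC044 and CC061) the kidney had under 0.5 of the median TPM, with ratios from 0.186 in CC061 to 0.447 in CC004. Their livers ranged from 0.339 to 3.29 times the liver median and their lungs from 0.47 to 1.9 times the lung median. CC033 was also low in liver (0.339) and CC031 in lung (0.47), while the other 5 were above 0.5 in both. CC024 had 138.9 TPM of *Irgm1* in liver, 3.29 times the median, and 11.1 TPM in kidney, 0.283 times the median. In the same kidneys, *Irgm2* and *Igtp* were at 1.12 and 1.10 times their medians in CC024 and at 1.54 and 1.09 in CC061, whereas in CC033 all 3 genes were low on TPM, at 0.359, 0.349 and 0.344. With TMM these were 0.659, 0.612 and 0.648 in CC033, and 6 kidneys were under 0.5 for *Irgm1*, of which 5 were among the 7, without CC004 and CC033 and with CC068 (0.432). CC061 was at 0.163 with TMM and CC024 at 0.452.

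The highest value was held by the same mouse almost throughout. The mouse of strain CC016, which was singled out after its values were seen, had the highest TPM for 9 of 10 genes in each of the 3 tissues. The exceptions were *Irgm2* in liver, where CC024 had 136.07 and CC016 135.79 TPM, *Gbp7* in lung and *Gbp4* in kidney, both at few counts. In kidney, *Igtp* had 594 TPM in CC016 against 5.11 to 47.15 (median 14.6) in the other 46 strains, a ratio to their median of 40.8. *Gbp6* in kidney had 120 TPM against 0.38 to 6.58 (median 1.88), a ratio of 63.6, and *Gbp2* had 242 against 3.51 to 28 (median 9.75), a ratio of 24.8. *Gbp10*, from which *Gbp6* is poorly separated, had 89.5 TPM in that kidney against 0 to 3.31 (median 0.2).

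In liver, *Gbp2* in CC016 had 174 TPM against 1.08 to 15.4 in the other strains, a ratio of 38.04, and *Igtp* had a ratio of 12.2. In lung the ratios were 16.7 for *Igtp*, 12.7 for *Gbp6* and 9.85 for *Gbp2*, and *Gbp9* had the smallest, at 2.67. None of these values overlapped with those of the other strains. Over the genes with a median of at least 10 counts, the ratio of CC016 ran from 4.56 to 38.04 in liver (7 genes), from 2.67 to 16.7 in lung (7 genes) and from 3.42 to 63.6 in kidney (6 genes), and with TMM scaling from 6.10 to 55.6, 3.44 to 19.9 and 4.69 to 73.6.

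Such values were rare among genes at large. On TMM-scaled TPM, CC016 held the highest value for 6.2% of the genes expressed in liver, 1.44% of those in lung and 2.29% of those in kidney, and in all 3 tissues for 32 of 8285 genes (0.386%). It was at least 3 times the median of the other strains in all 3 tissues for 0.314% of genes. Both conditions held for 17 genes, of which 6 were *Gbp2*, *Gbp6*, *Gbp9*, *Igtp*, *Irgm1* and *Irgm2* and the others *Gbp5*, *Gbp8*, *Gm12250*, *H2-DMa*, *H2-Q4*, *H2-Q5*, *Il18bp*, *Nlrc5*, *Psmb8*, *Psmb9* and *Serpina3g*.

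Interferon gamma and some of its targets were also high in this mouse. *Ifng*, the gene of interferon gamma, had its highest TPM in CC016 in each tissue, with 11 counts in liver, 13 in lung and 5 in kidney against a median of 0 in the other strains. In TPM these were 2.83, 3.01 and 1.14, against at most 0.54, 2.73 and 0.51 in the other strains. *Irf1* was at 4.99, 1.80 and 3.35 times the median of the other strains in liver, lung and kidney (20, 118 and 26 counts). It was highest in CC016 in liver and kidney and at rank 2 in lung, at 15.3 TPM against 17.9 in the highest strain. *Gbp5* was at 41.6, 16.8 and 9.24 times. The lists differed. Of other GTPases of these families with a median of at least 10 counts, CC016 was highest for 6 of 9 in liver, 6 of 9 in lung and 3 of 5 in kidney, at median ratios of 19.8, 9.46 and 7.99. Of genes of interferon gamma signalling it was highest for 0 of 5, 4 of 10 and 2 of 5, with median ratios of 1.35, 1.72 and 0.921, and *Stat2* in its liver was at 0.864. Of other interferon-induced genes it was highest for 6 of 13, 2 of 14 and 4 of 10 (2.71, 1.995 and 2.41), and of inflammasome partners for 2 of 4, 0 of 6 and 0 of 3 (3.61, 1.29 and 2.07). Autophagy genes were below the other strains on TPM. Of them 0 of 8, 0 of 10 and 0 of 8 were highest, at median ratios of 0.561, 0.778 and 0.715. The ratios of all these lists are on TPM and were not computed with TMM. For the well-counted GTPases, TMM gave CC016 higher ratios than TPM did in each tissue. Over all expressed genes its median ratio with TMM was 0.944, 1.006 and 0.993, so list ratios below 1 need not hold on that scale. Markers of other cells differed too. In the liver of CC016 the summed leukocyte markers (*Ptprc*, *Cd52* and *Coro1a*) were 130 TPM, the highest of 47 (lowest 0, median 8.05). Those of T and NK cells were 16.6 (lowest 0, median 1.16) and those of macrophages 335 (lowest 37.3, median 125), each also the highest. The leukocyte sum follows mostly 1 gene, since in liver the median was 7.72 TPM for *Cd52*, 0.18 for *Ptprc* and 0 for *Coro1a*. In its lung the sums of leukocytes, T and NK cells, and macrophages stood at ranks 14, 6 and 22, and in its kidney at ranks 4, 5 and 25. B cell markers went the other way, at ranks 30, 43 and 45 in its liver, lung and kidney. Endothelial markers stood at ranks 42, 36 and 38. The kidney tubule markers of its kidney, a sum made mostly of *Kap*, were the lowest of 47 (26826 TPM). Infiltrating cells and a higher level per cell cannot be told apart in whole tissue, and the part of these cells in the values of CC016 was not tested.

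**Figure D3:**
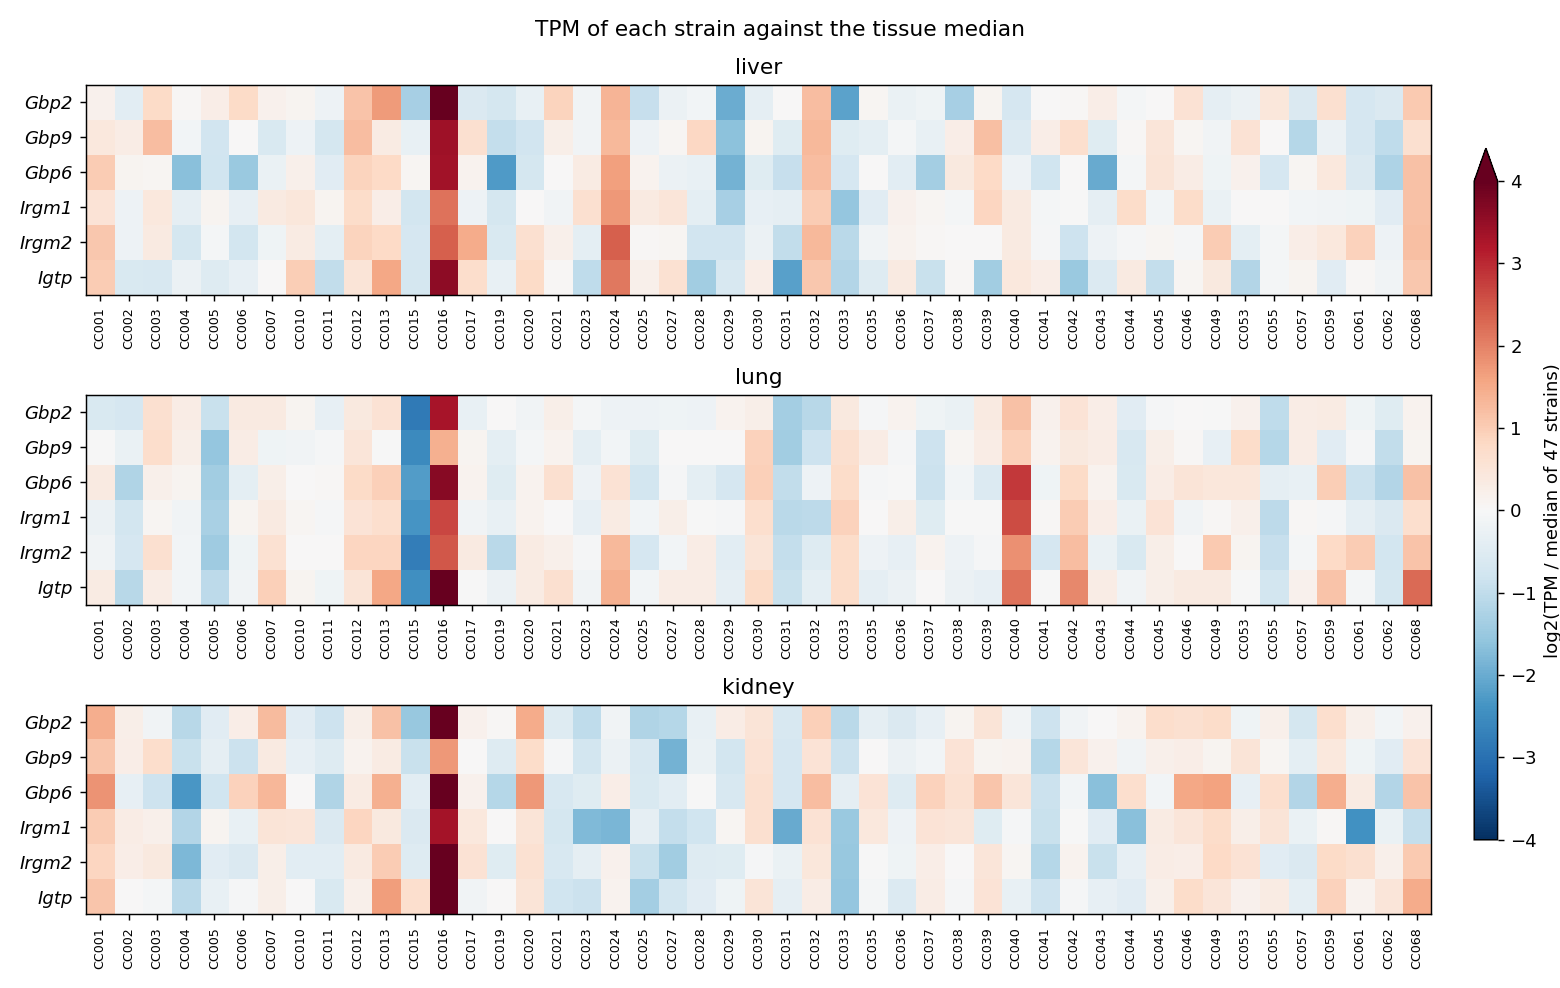
Log2 ratio of TPM to the median of 47 strains (colour, clipped at 4) for *Gbp2*, *Gbp9*, *Gbp6*, *Irgm1*, *Irgm2* and *Igtp* (rows) in every strain (columns), in liver, lung and kidney. The column of CC016 is dark red in all 3 tissues, that of CC015 is deepest blue in lung, CC040 is clearly red in lung and not in liver or kidney, and *Irgm1* in kidney is blue in several strains where its neighbours in the panel are not.

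Other libraries stood out too. The lung of CC015 had the lowest TPM for 6 of 7 GTPases with at least 10 median counts, at 0.117 to 0.21 times the median of the other strains, but on TPM this library held the lowest value for 71.1% of all genes expressed in lung. With TMM its ratios were 0.492 to 0.952 and 1 of 7 GTPases was lowest there, against 13.5% of all genes, and by the mean rank value of the well-counted members, CC015 was at rank 44 in lung and 47 in liver. The lung of CC040 was at rank 2 or 3 behind CC016 for all 7 of these genes on TPM, at 7.13 times the median of the other strains for *Gbp6*, 6.17 for *Irgm1* and 4.57 for *Igtp*. This lung had the highest sums of leukocyte markers (439 TPM, lowest 14.3, median 169), mostly *Cd52*, and of macrophage markers (479 TPM, lowest 33.6, median 180). It also had the highest sum of kidney tubule markers among the lungs (674 TPM, lowest 43.0, median 139). Its markers of T and NK cells, B cells, endothelium, and alveolar and airway cells were at ranks 4, 18, 35 and 36. The liver of CC024 was at 5.27 times for *Irgm2* and 4.47 times for *Igtp*, and its lung at 2.497 and 2.68 times, ranks 3 and 6. In that liver the markers of leukocytes, T and NK cells, macrophages and B cells were at ranks 15, 14, 11 and 11. Its endothelial markers were the highest of 47 (75.2 TPM, lowest 18.9, median 52.9). The part of these cells in the values was not tested.

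Agreement between the tissues of a mouse was measured over the 47 strains with Pearson's r of rank inverse normal values of TMM-scaled TPM, with two-sided permutation tests and q over all expressed genes. *Gbp2*, *Gbp6*, *Gbp9* and *Irgm2* were positively correlated in all 3 pairs of tissues. *Igtp* was so between liver and lung and between lung and kidney, and *Irgm1* between liver and lung. At q ≤ 0.1 this made 6 of 6 genes between liver and lung, where 12.5% of all genes passed, 4 of 6 between liver and kidney (22.7%) and 5 of 6 between lung and kidney (16.6%). Where strains were left out or the scale changed, a gene passed at the p limit that q ≤ 0.1 set here, without a new q. The median r over all expressed genes was 0.136, 0.184 and 0.153 for these pairs.

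The closest agreement was that of *Irgm2* and *Gbp9* between lung and kidney. *Irgm2* had r = 0.725 (Spearman's rho = 0.718, permutation p = 1e-05, the smallest the 100000 permutations can give, q = 0.000694), which was 0.677 without the 2 strains farthest from the median and 0.693 without CC016. *Gbp9* had r = 0.713 (rho = 0.737, permutation p = 1e-05, q = 0.000694), and 0.668 and 0.675 with the same strains left out. Between liver and lung, *Gbp9* had r = 0.663 (rho = 0.674, permutation p = 2e-05, q = 0.000957) and 0.597 without the 2 farthest strains. *Gbp6* had r = 0.567, 0.530 and 0.525 in liver and lung, liver and kidney, and lung and kidney (rho = 0.565, 0.450 and 0.535, permutation p = 3e-05, 0.00022 and 0.00016, q at most 0.00378), and its lowest r without the 2 farthest strains was 0.487.

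*Gbp2* had r = 0.521, 0.505 and 0.484 in the same order (rho = 0.418, 0.401 and 0.409, permutation p = 0.00022, 0.00033 and 0.0006, q at most 0.00938) and 0.433, 0.416 and 0.357 without its 2 farthest strains, CC016 and CC013 for the pairs with liver. Between lung and kidney its r was 0.337 without CC016 and CC015, where it no longer passed. *Irgm2* had r = 0.532 between liver and lung and 0.523 between liver and kidney (rho = 0.529 and 0.495, permutation p = 0.00011 and 0.00018, q = 0.00421 and 0.0034), and 0.434 and 0.447 without the 2 farthest strains. *Igtp* had r = 0.466 between liver and lung and 0.441 between lung and kidney (rho = 0.428 and 0.412, permutation p = 0.00099 and 0.00214, q = 0.0183 and 0.0234). Without the 2 farthest strains these were 0.352 and 0.341 and no longer passed, so that passing the p limit depended on those strains. Without CC016 and CC015 they were 0.406 and 0.429.

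*Irgm1* went with the liver-lung pair alone. Its r was 0.503 between liver and lung (rho = 0.480, permutation p = 0.00034, q = 0.00803), 0.165 between liver and kidney (rho = 0.162, permutation p = 0.268, q = 0.469) and 0.255 between lung and kidney (rho = 0.199, permutation p = 0.0835, q = 0.265), and 0.380, 0.147 and 0.126 without the 2 farthest strains. The difference between these correlations was not tested. *Igtp* between liver and kidney was at r = 0.293 (rho = 0.269, permutation p = 0.0463, q = 0.156), and 0.193 without the 2 farthest strains.

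On TPM without TMM, the p limit set with TMM was kept. At that limit 3 of 6 genes passed between liver and lung (*Gbp6*, *Irgm2* and *Igtp*), 5 of 6 between liver and kidney and 2 of 6 between lung and kidney (*Gbp6* and *Irgm2*). The median r of all genes between liver and lung also fell on that scale, from 0.136 to 0.0233. The share of all genes with r of at least 0.4 was 2.24%, 9.5% and 4.57% in these pairs, against 9.51%, 14.3% and 11.7% with TMM. No q over all genes was computed on TPM without TMM. *Gbp6* and *Irgm2* were the genes whose agreement passed that p limit in all 3 pairs on both scales. Without CC016 the counts stayed at 6, 4 and 5 of 6.

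**Figure D4:**
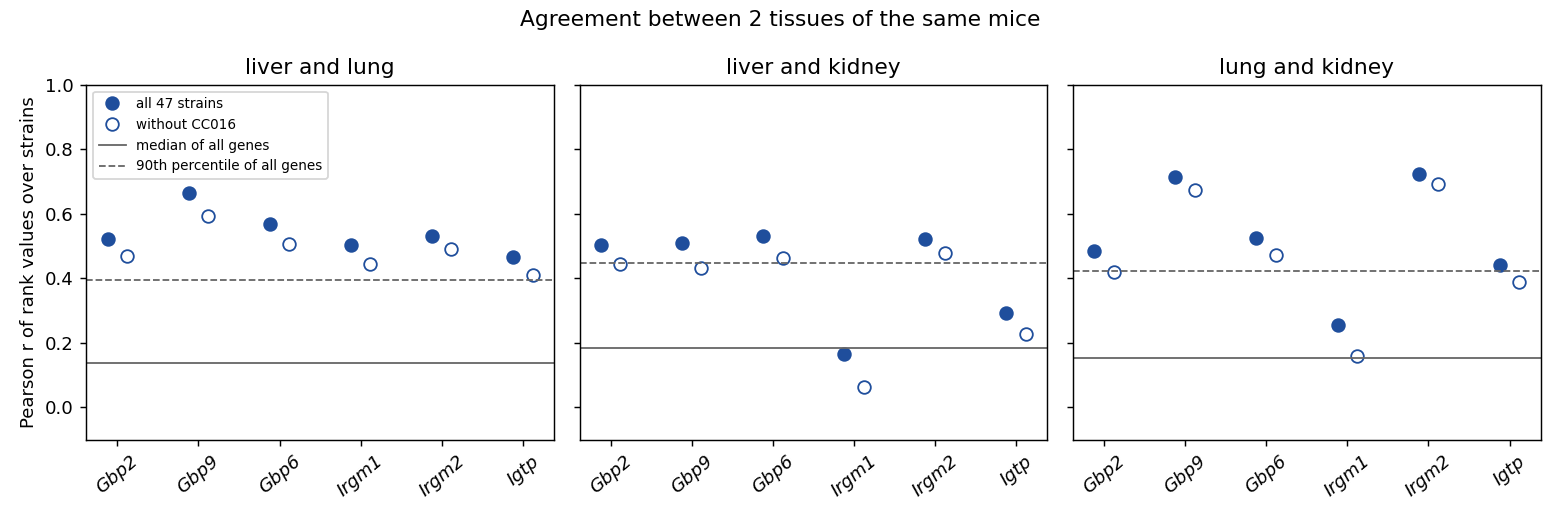
Pearson's r of rank values over strains (vertical axis) between 2 tissues of the same mice for 6 GTPases (horizontal axis), with all 47 strains (filled) and without CC016 (open). The lines mark the median (solid) and the 90th percentile (dashed) of all expressed genes; *Irgm1* lies near the median in both pairs with kidney and above the 90th percentile between liver and lung.

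Strains that were high for 1 GTPase tended to be high for the others. As a description over the 47 strains, in which all genes share the library, Pearson's r of rank values between members with a median of at least 10 counts had a median of 0.43 in liver (21 pairs, 0.25 to 0.80), 0.67 in lung (21 pairs, 0.34 to 0.87) and 0.56 in kidney (15 pairs, 0.34 to 0.76). The median r of the members with other expressed genes was -0.01 for liver, -0.0004 for lung and 0.003 for kidney, and 0.265%, 0.402% and 0.367% of those pairs reached r = 0.5, against 5 of 21, 16 of 21 and 9 of 15 pairs among members. Without CC016 the medians among members were 0.36, 0.63 and 0.53.

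The neighbours *Irgm2* and *Igtp*, whose promoters are alike as described above, had r = 0.80 in liver, 0.77 in lung and 0.76 in kidney, the highest of the pairs in liver and kidney. In lung the highest were *Gbp6* with *Irgm1* (0.87) and *Gbp6* with *Igtp* (0.85), genes on different chromosomes. *Gbp9* and *Gbp6*, both on chromosome 5, had 0.72 in liver, 0.76 in lung and 0.56 in kidney. *Gbp2*, on chromosome 3, was more loosely tied to the others in liver (0.28 to 0.49) than it was in lung or kidney (0.44 to 0.70), a contrast given without a test.

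**Figure D5:**
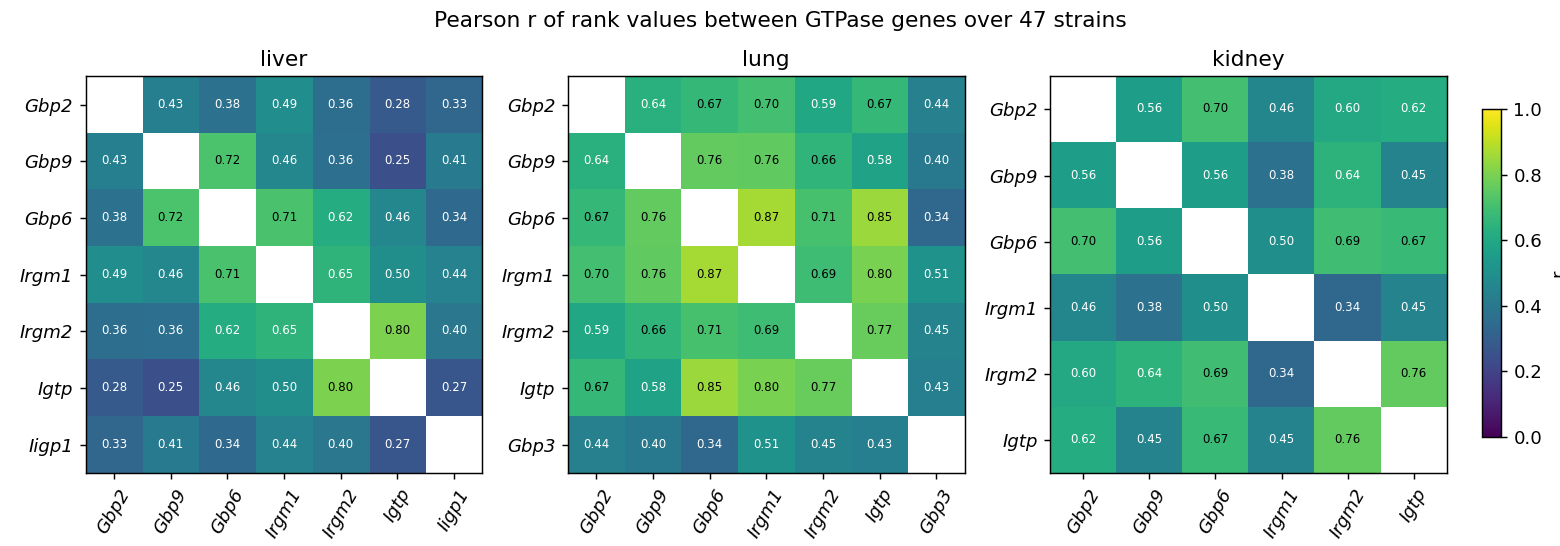
Pearson's r of rank inverse normal values of TMM-scaled TPM between GTPase genes over 47 strains (number and colour in each cell), in liver, lung and kidney. Genes with a median of at least 10 counts in the tissue are shown; every value is above 0, lung has the highest values and *Irgm2* with *Igtp* is high in each tissue.

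The genes other than the 10 members whose strain values were most like the mean rank value of the 10 GTPases, as a description, were taken over the 47 strains. That mean weighs all 10 equally, also those with a median under 10 counts in the tissue, whose ranks are poorly resolved. In liver they were *Ifit2* (r = 0.76), *Uba7* (0.75), *Rtp4* (0.74), *Gm12250* (0.71) and *Herc6* (0.71), among 8995 genes. In lung they were *Nlrc5* (0.82), *Zbp1* (0.80), *Cd274* (0.77), *Dtx3l* (0.75) and *Parp9* (0.74), among 12382. In kidney they were *Nlrc5* (0.74), *Usp18* (0.72), *Parp14* (0.72), *Casp1* (0.72, at a median of 8 counts) and *Psmb8* (0.72), among 10766. *Nlrc5*, which activates class I histocompatibility genes, led in both lung and kidney, also without CC016 (0.81 and 0.71). *Gm12250* is itself a GTPase of the immunity-related family and lies near *Igtp* on chromosome 11.

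Markers of T and NK cells, leukocytes and macrophages moved with the family across strains, those of B cells less so. The mean rank value of the members went with the summed markers of T and NK cells at r = 0.52 in liver, 0.45 in lung and 0.73 in kidney, with those of leukocytes at 0.38, 0.47 and 0.45, and with those of macrophages at 0.45, 0.37 and 0.35 (47 strains, 0.43, 0.38 and 0.70 for T and NK cells without CC016). The leukocyte sum was mostly *Cd52* in each tissue. In kidney these T and NK markers were low throughout, with summed TPM from 0 to 19.1 (median 1.45) and *Klrb1c* at 0 in the median library. Without CC016 the leukocyte values were 0.27, 0.45 and 0.40 and the macrophage values 0.35, 0.36 and 0.31. Endothelial markers were at -0.08, -0.13 and -0.24 and B cell markers at 0.26, 0.10 and 0.16, the latter at 0.29, 0.22 and 0.30 without CC016. Alveolar and airway markers, which are foreign to liver and kidney, were at 0.31 in liver, -0.18 in lung and 0.04 in kidney. The part of these cells in the strain differences was not tested, and more cells and more RNA per cell cannot be told apart. Ordered by the mean rank value of the well-counted members, CC013, CC016 and CC059 were among the 10 highest strains in all 3 tissues, and CC005 and CC019 among the 10 lowest.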

How the data were processed

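The members and the gene lists were chosen with earlier results of these data known. Per the labels and the study's methods, the authors sequenced ribosome-depleted RNA as single-end reads of 50 bases, aligned them with STAR 2.5.3a to strain pseudo-genomes built on mm9, and estimated expression with RSEM from uniquely aligned reads. Each deposited file holds an expected count, a TPM and an FPKM value per gene, and FPKM was not used here. No sequencing batch is given in the labels, and a batch covariate was therefore left out. Here the expected counts were rounded to whole numbers (25 values were not whole), scaled by TMM (edgeR 4.0.16) and tested with limma-voom (limma 3.58.1) for 12127 genes above 1 CPM in at least 30% of libraries, with tissue and strain as terms, the strain pairing the tissues because they come from the same mouse. Genes were called at q ≤ 0.1 (Benjamini-Hochberg) with a log2 fold change of 1 or more in either direction. Strain analyses used TMM-scaled TPM for genes above 1 in more than 50% of libraries, rank inverse normal values, and 100000 permutations (numpy 2.4.6). Median depth was 10423382, 9338124 and 8245850 counts in liver, lung and kidney, and 4 strains had a library under 3000000 counts. With 1 mouse per strain, the tests compare tissues over mice, and no spread within a strain is known. Named were all members, the 3 most changed genes of each list, *Ifng*, *Irf1* and *Gbp5*, and the 5 genes most alike per tissue, and 1 gene that this rule also names is not reported here. Alternatives changed the scaling, test, filter, thresholds, block and strains. The fits were tested on simulated data. *Gbp1* was not analysed here.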

Additional observations from a re-analysis of the deposited data

How the results depend on the processing

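The number of GTPases called between liver and lung was 6, and 3 on library totals and 2 on log2(TPM + 1). Between liver and kidney it was 5, and 3 on log2(TPM + 1). Directions that reversed did so only where TMM was not applied. Between liver and lung, *Gbp6* came to -0.98 on library totals, -0.92 on log2(TPM + 1) and -1.09 on log2(TPM + 0.1), *Irgm2* to -0.18, -0.28 and -0.29, *Irgm1* to -0.030 and -0.029 and *Igtp* to -0.048 and -0.049 on the log2(TPM + 1) and log2(TPM + 0.1) scales. *Gbp9* between liver and kidney came to -0.78, -0.69 and -0.79, and *Irgm1* between lung and kidney to 0.29, 0.37 and 0.38, on the same 3 scales. Of 251 recomputed fold changes, 217 kept their direction and side of the threshold, 13 fell below it, 5 passed it and 16 reversed. Without the replicate block the tissue comparisons gave 6, 5 and 5 calls, and the same was found without CC016, an alternative chosen after seeing the data, as was leaving out CC016 and CC015.

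Agreement between tissues passed for 6, 4 and 5 of 6 genes. On TPM without TMM, at the p limit set with TMM, it passed for 3 between liver and lung and 2 between lung and kidney. Of 162 recomputed correlations, 148 kept their side of the threshold and none reversed among the alternatives run. With a limit of 25% of the median, 12 very low values were found in place of 5. The cause of these shifts was not tested. Depth limits *Gbp3*, *Gbp4*, *Gbp7* and *Iigp1*, whose absence in a library was seldom resolved.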
